A study of Mus musculus with 4 samples.

Results

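The adipocyte nuclei of inguinal white adipose tissue (iWAT) after 1 day of cold were compared with those of mice kept at room temperature. Nuclei that the deposited annotation places in the clusters Adipocyte (white) and Beige were pooled and summed for each mouse. This gave 1482 nuclei from 6 mice, 845 of day1C (cold, day 1) and 637 of day0RT (room temperature), out of 32552 nuclei of 21 mice, of which 7004 were adipocytes. The study profiled open chromatin in single nuclei of whole iWAT by combinatorial indexing, where a transposase inserts adapters into accessible DNA and barcodes assign reads to nuclei. All mice were male C57BL/6 animals 8 weeks of age. The day0RT mice stayed at 22 °C and the day1C mice were housed at 6.5 °C, by the labels, for 1 day. Used only beside them were mice after 3 or 7 days of cold (day3C and day7C) and mice given CL-316,243 (CL) for 1 day (day1CL). CL is an agonist of the β3-adrenergic receptor and was given at 1 mg/kg at room temperature. Mice given CL for 3 or 7 days (day3CL and day7CL) entered the fit over all mice and the comparison of Beige with Adipocyte nuclei. Every group had 3 mice.

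Cold activates sympathetic nerves in fat, and noradrenaline acts through β-adrenergic receptors and cAMP on adipocytes. White adipocytes then release fatty acids by lipolysis, and over days some adipocytes of iWAT turn on a thermogenic program with the uncoupling protein Ucp1 and become beige. Chromatin opens and closes as transcription factors bind promoters and enhancers, so accessibility reads the regulatory state of a gene rather than its RNA level.

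After 1 day of cold, few genes and peaks passed the test, and which ones did depended on single mice and on the tool. Without day0RT mouse 3 no gene passed, and with DESeq2 no peak did. Accessibility rose at Ghr, the growth hormone receptor, and at Me1, the malic enzyme that supplies NADPH for fatty acid synthesis. It also rose at single peaks in Acly, Scd1, Acacb (a mean of 5 counts), Pfkfb3 and Dgat2, and at a peak near G0s2 that overlaps Lamb3. It fell at Zbtb16, a transcriptional repressor known as a target of the glucocorticoid receptor, although the groups overlapped there. Adcy5, an adenylyl cyclase that makes cAMP, and Gsg1l fell as well. No gene of the thermogenic list was called, Ucp1 included, which is near the share over all genes (0.104% higher and 0.236% lower). Ucp1 rested on a mean of 6.5 counts.

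The sequences of 8 called peaks are shown because the results turn on them, 4 that rose at lipid and glucose genes and 4 that fell and hold the letters of the nuclear receptor family NR3C. Each is the central 300 bases of the peak on the plus strand of GRCm38 (mm10). Capitals mark motif letters found by a script, searched on both strands. Searched letters were CACGTG for the E-box, CCCNNGGG for EBF, ACANNNTGT for NR3C and TTGCNNAA for C/EBP. A match describes the letters and is not evidence of binding. The first 4 peaks rose.
Acly intron, chr11:100505478-100505777, E-box: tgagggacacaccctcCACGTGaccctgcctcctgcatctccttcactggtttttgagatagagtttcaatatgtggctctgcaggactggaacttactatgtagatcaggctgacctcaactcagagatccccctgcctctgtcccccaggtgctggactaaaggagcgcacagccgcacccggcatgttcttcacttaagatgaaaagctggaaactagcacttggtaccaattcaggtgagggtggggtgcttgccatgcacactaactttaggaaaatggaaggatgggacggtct
Scd1 intron, chr19:44405503-44405802, EBF: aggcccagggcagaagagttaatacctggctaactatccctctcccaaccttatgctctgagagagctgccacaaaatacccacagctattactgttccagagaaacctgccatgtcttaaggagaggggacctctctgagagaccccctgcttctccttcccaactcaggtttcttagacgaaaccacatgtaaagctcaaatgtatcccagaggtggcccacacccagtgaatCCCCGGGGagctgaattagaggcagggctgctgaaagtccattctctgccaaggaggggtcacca
Pfkfb3 exon, chr2:11484584-11484883, E-box: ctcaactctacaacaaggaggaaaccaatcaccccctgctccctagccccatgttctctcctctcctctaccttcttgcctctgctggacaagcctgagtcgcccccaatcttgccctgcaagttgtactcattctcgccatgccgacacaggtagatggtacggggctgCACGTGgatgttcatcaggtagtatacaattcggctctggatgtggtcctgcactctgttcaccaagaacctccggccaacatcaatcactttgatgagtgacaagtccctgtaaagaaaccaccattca
Past the start of G0s2, chr1:193271313-193271612, EBF: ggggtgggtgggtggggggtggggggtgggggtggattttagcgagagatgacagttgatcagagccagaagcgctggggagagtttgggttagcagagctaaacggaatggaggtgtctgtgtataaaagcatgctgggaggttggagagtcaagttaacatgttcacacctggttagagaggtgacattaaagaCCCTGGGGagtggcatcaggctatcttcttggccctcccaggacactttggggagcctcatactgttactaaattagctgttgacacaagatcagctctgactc
The following 4 peaks fell. The 2 labelled by Cited2 and Cnksr3 are named only for the nearest gene start. They lie at −241952 bases from the start of Cited2 and at −52774 bases from that of Cnksr3.
Zbtb16 intron, chr9:48723665-48723964, NR3C: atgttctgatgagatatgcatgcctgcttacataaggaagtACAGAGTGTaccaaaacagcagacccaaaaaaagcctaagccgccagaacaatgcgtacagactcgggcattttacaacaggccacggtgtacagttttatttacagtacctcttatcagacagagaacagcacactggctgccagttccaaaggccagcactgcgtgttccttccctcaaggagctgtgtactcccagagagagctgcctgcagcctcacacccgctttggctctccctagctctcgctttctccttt
Tiam1 intron, chr16:89993961-89994260, NR3C: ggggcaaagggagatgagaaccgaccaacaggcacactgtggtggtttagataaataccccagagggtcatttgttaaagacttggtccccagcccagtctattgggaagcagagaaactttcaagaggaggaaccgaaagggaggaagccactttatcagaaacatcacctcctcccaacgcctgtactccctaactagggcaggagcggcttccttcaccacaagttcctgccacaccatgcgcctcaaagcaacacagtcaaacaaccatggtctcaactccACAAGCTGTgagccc
Between genes near Cited2, chr10:17481116-17481415, NR3C: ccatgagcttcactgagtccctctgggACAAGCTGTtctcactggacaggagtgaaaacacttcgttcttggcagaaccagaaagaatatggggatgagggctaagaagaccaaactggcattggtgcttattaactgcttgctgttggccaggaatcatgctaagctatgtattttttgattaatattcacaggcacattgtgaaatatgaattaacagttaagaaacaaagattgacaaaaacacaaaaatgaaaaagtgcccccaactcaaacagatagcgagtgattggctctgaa
Between genes near Cnksr3, chr10:7264861-7265160, C/EBP and NR3C: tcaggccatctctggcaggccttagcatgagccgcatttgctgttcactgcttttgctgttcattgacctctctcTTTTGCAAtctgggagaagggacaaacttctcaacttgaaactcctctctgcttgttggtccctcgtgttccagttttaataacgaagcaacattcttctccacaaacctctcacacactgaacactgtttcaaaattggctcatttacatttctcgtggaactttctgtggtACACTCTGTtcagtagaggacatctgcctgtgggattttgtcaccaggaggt

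Depth was modest. The day0RT mice gave 196, 156 and 285 adipocyte nuclei and the day1C mice 414, 206 and 225. Each entry of the deposited peak matrix is 0 or 1, so counts are numbers of nuclei with reads in a peak, and summed counts ran from 358239 to 1094991 per mouse in day0RT and from 499982 to 1193281 in day1C. No barcode was shared between the 6 mice. Gene and peak values below are CPM, counts scaled to a total of 1000000 per mouse over the features tested. Genes and peaks were scaled separately. Values are listed for mice 1, 2 and 3 of a group. Those of the marker check and of the other nuclei are instead scaled to the mouse's total over all genes, tested or not. The study's reporting summary mentions 3 independent batches, and the sources used here do not say which mice each batch held, so whether the numbers stand for batches is not known. In such sums, fewer cells with an open region and less signal per cell cannot be told apart.

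The label was checked against cell type markers. Summed over 10 adipocyte markers (Adipoq, Pparg, Plin1 and others), accessibility was 2618 to 3024 CPM in day0RT and 2939 to 3203 CPM in day1C, against 344 to 439 CPM in all other nuclei of the same mice. Markers of B cells summed to 158 to 235 and 147 to 240 CPM against 927 to 1147 CPM in the other nuclei, those of T cells to 93.6 to 112 and 98.0 to 108 CPM, and those of macrophages and dendritic cells to 63.4 to 77.3 and 74.4 to 91.7 CPM with C1qa at 0. Progenitor markers summed to 164 to 246 and 203 to 207 CPM, close to the 208 to 275 CPM of the other nuclei. That sum mixes members that went opposite ways. Dpp4 had 150 to 190 CPM in the other nuclei and 13.9 to 46.5 CPM in the adipocyte nuclei. Pdgfra had 8.85 to 12.9 against 31.6 to 49.2 CPM, Col3a1 6.56 to 15.2 against 47.0 to 91.3 CPM, and the other members overlapped. Endothelial markers summed to 130 to 211 and 164 to 214 CPM. Muscle markers summed to 170 to 197 and 139 to 182 CPM, above the 106 to 128 CPM of the other nuclei, with Myh4 at 0. None of the markers was called. Of the 8 lists, the groups did not overlap for the beige markers alone. These summed to 1278 to 1480 CPM in day0RT and 1494 to 1648 CPM in day1C. Of the 8 beige markers 6 had a positive log2 fold change, while Prdm16 (−0.19) and Kcnk3 (−0.04) had negative ones. The largest difference in CPM was at Elovl6, also a gene of the lipogenesis list below. It had 258, 140 and 177 CPM in day0RT and 263, 340 and 296 CPM in day1C. The part of the beige markers in the results below was not tested.

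The share of Beige among adipocyte nuclei was 12.2%, 7.69% and 7.72% in the day0RT mice and 7.73%, 14.1% and 9.33% in the day1C mice. The groups overlapped, with means of 9.22% ± 2.62 (SD, n = 3) and 10.4% ± 3.30 (SD, n = 3) and a difference of 1.16 percentage points (exact permutation test, two-sided, p = 0.5). Without day1C mouse 2 the difference was −0.69. Adipocytes made up 10.9%, 10.9% and 17.4% of all nuclei in day0RT and 29.7%, 13.5% and 13.1% in day1C (exact permutation p = 0.5), where 3 mice against 3 cannot give a p below 0.1. A difference in the Beige share was not detectable with these mice. At day 7 of cold the Beige share was 32.5%, 29.7% and 26.1%.

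Of 14429 genes tested, 15 rose and 34 fell in day1C (edgeR adjusted p under 0.05), which is 0.104% and 0.236% of the genes tested, and 1439 had an unadjusted p under 0.05. The 3 mice of each group did not overlap for 15 of the 15 higher and 29 of the 34 lower genes, against 14.3% of all genes tested. Of 47835 peaks tested, 39 rose and 63 fell, or 0.0815% and 0.132%, and 4668 had an unadjusted p under 0.05. These counts rested on single mice and on the tool. Without day0RT mouse 3, the deepest control, edgeR called 0 genes and 1 peak. In that setting 1068 genes and 3527 peaks had an unadjusted p under 0.05. Without day0RT mouse 2 the counts were 13 genes and 16 peaks. Leaving out each day1C mouse gave 9 to 24 genes, with 13 peaks without day1C mouse 2 and 23 without mouse 1. Leaving out day1C mouse 3 gave 35 higher and 49 lower peaks among those tested with all mice. Without day0RT mouse 1 the counts were 80 genes and 161 peaks. With the mouse number as a block, 25 genes and 60 peaks were called. DESeq2 called 9 genes and 0 peaks, with 2465 peaks at an unadjusted p under 0.05.

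**Figure D1:**
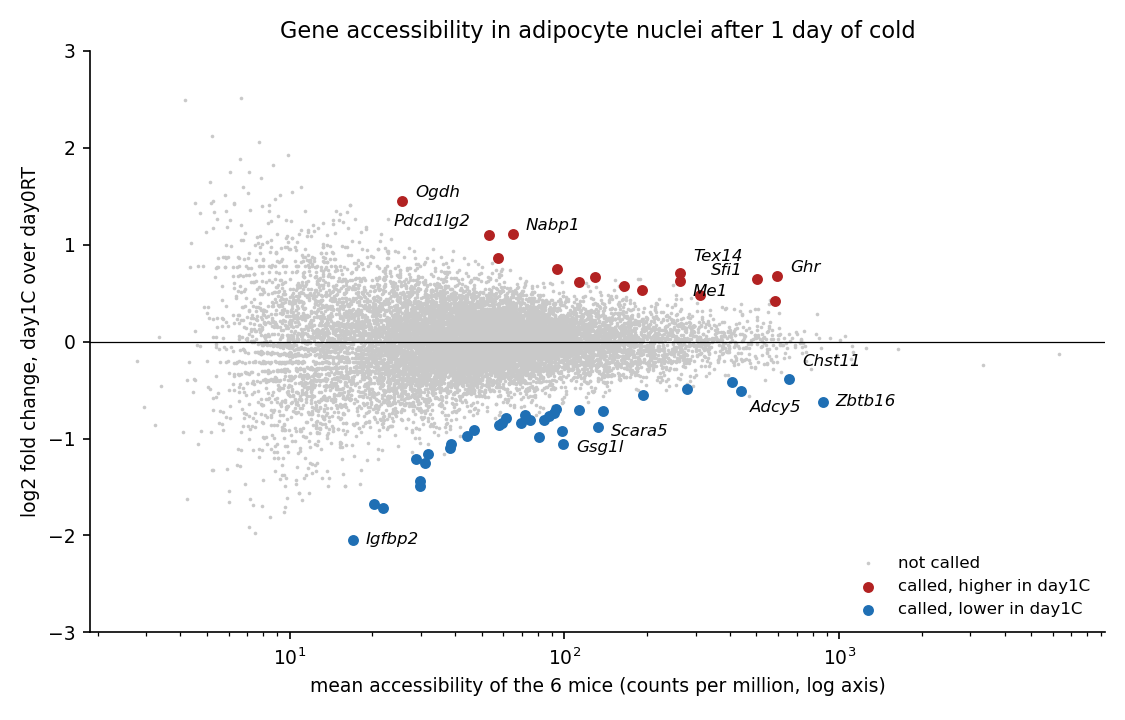
Mean accessibility of each tested gene over the 6 mice (CPM, log axis) against the log2 fold change of day1C over day0RT. Each point is 1 gene, red and blue mark the 15 genes called higher and the 34 called lower, and the lower calls reach log2 fold changes of −2.04 (Igfbp2) while the higher ones stop at 1.45 (Ogdh).

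Ghr (chr15:3317760-3583492), which binds growth hormone, had 466, 488 and 436 CPM in day0RT and 839, 768 and 577 CPM in day1C. Every day1C mouse lay above every day0RT mouse, with a log2 fold change of 0.68 ± 0.12 (SE, adjusted p = 0.000961). Me1 (chr9:86581371-86695953) had 207, 212 and 198 CPM against 277, 373 and 316 CPM, a log2 fold change of 0.62 ± 0.15 (adjusted p = 0.0362). Tex14 (chr11:87405065-87555823), a gene of intercellular bridges between germ cells, had 216, 190 and 190 CPM against 288, 363 and 338 CPM (0.71 ± 0.13, adjusted p = 0.00121). At Tex14 the change lay outside the start, since peaks within 2000 bases of the gene start gave −0.043.

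Pdcd1lg2 (chr19:29410919-29471161), which encodes the immune checkpoint ligand PD-L2, had 37.0, 35.9 and 31.6 CPM in day0RT and 79.1, 68.0 and 67.3 CPM in day1C (log2 fold change 1.10 ± 0.22, adjusted p = 0.00445). In the other nuclei of the same mice Pdcd1lg2 was more open, at 197, 203 and 198 CPM in day0RT and 190, 175 and 204 CPM in day1C. Nabp1 (chr1:51465862-51478425), a single-stranded DNA binding protein, had 41.1, 35.9 and 42.2 CPM against 85.4, 106 and 78.5 CPM (1.11 ± 0.24, adjusted p = 0.0172). Both genes had the largest rise among those with a mean of at least 20 counts, and neither group overlapped the other. Gucy2g, a guanylyl cyclase, rose by 0.86 ± 0.21 on the log2 scale, Lmbrd1, which exports cobalamin from lysosomes, by 0.75 ± 0.18, and Clstn3, a calsyntenin, by 0.66 ± 0.16, with adjusted p from 0.035 to 0.0406. Clstn3 was narrow within both groups, at 103, 96.8 and 99.6 CPM against 152, 159 and 168 CPM.

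Sfi1 (chr11:3131850-3193463), a spindle pole gene in a region with near-identical copies, had 392, 427 and 359 CPM in day0RT and 535, 594 and 699 CPM in day1C (0.65 ± 0.12, adjusted p = 0.00264), and its value is uncertain where reads of the copies were split. It was also higher in the other nuclei of the same day1C mice, at 1210, 1145 and 1228 CPM against 795, 996 and 776 CPM. Ghr showed the same in the other nuclei, at 65.4, 74.5 and 56.9 CPM against 24.7, 34.2 and 44.0 CPM. Of the 15 higher genes, 5 had non-overlapping, higher values in the other nuclei, Ghr, Sfi1, Nabp1 and Gm49395 among them, while 0 of the 34 lower genes had non-overlapping, lower ones. The median log2 ratio of the 34 lower genes was 0.22 in the other nuclei and −0.85 in adipocytes, with no test of the former. Itga1 and Gm49395 share 17 peaks, so their 2 calls are not separate.

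Among the genes that fell, Gsg1l had the smallest p. Gsg1l (chr7:125878420-126082411), an auxiliary subunit of AMPA-type glutamate receptors, had 84.2, 140 and 172 CPM in day0RT and 68.6, 68.0 and 61.7 CPM in day1C (log2 fold change −1.06 ± 0.17, adjusted p = 0.000522). The day1C mice were alike and low, and the day0RT mice spread above them, with mouse 1 the closest. Serpina3m, a serine protease inhibitor, had 41.1, 50.2 and 64.4 CPM against 25.3, 17.6 and 31.8 CPM (−1.10 ± 0.26, adjusted p = 0.0376). Heyl, an effector of Notch signalling, had 41.1, 46.6 and 64.4 CPM against 24.3, 30.2 and 26.2 CPM (−1.05 ± 0.25, adjusted p = 0.0376).

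Slc6a9 (chr4:117834506-117875198), a glycine transporter, was even within each group, at 76.0, 78.9 and 71.5 CPM in day0RT and 41.1, 37.8 and 43.0 CPM in day1C (−0.86 ± 0.21, adjusted p = 0.0406). Rsph9, a radial spoke protein of cilia, had 105, 93.2 and 120 CPM against 57.0, 62.9 and 48.6 CPM (−0.98 ± 0.19, adjusted p = 0.00332). It shares 2 peaks with its neighbour Mrps18a, a mitochondrial ribosomal protein gene (−0.84 ± 0.20), so these calls are not separate either. Slc37a1, a sugar phosphate exchanger, fell by 0.98 ± 0.22 on the log2 scale, LTO1 by 0.91 ± 0.23 and the protease gene Capn3 by 0.84 ± 0.20, with adjusted p from 0.0294 to 0.0434.

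Outside the rule for named genes and chosen after their values were seen, 2 thinly counted genes had the largest fold changes in each direction. Ogdh, a subunit of the 2-oxoglutarate dehydrogenase of the citric acid cycle, had 16.4, 17.9 and 9.37 CPM in day0RT and 30.6, 35.2 and 44.8 CPM in day1C (1.45 ± 0.33, adjusted p = 0.0228). Igfbp2, which binds insulin-like growth factors, had 22.6, 35.9 and 25.8 CPM against 7.38, 5.04 and 5.61 CPM (−2.04 ± 0.44, adjusted p = 0.0132). They rest on a mean of 14.7 and 9.17 counts per mouse.

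**Figure D2:**
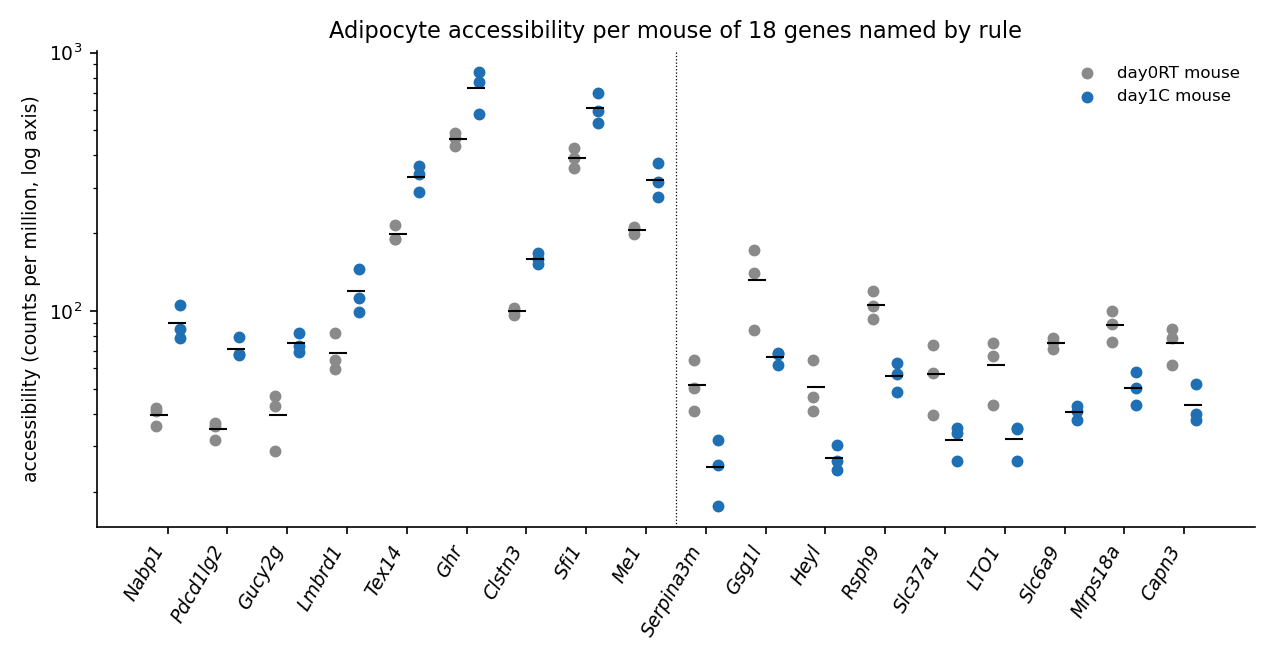
Accessibility of 18 named genes in the adipocyte nuclei of each mouse (CPM, log axis), with 1 point per mouse and a bar at the group mean, genes called higher to the left of the dotted line and genes called lower to the right. The day0RT and day1C mice do not overlap for any of these genes, which the naming rule required, and Slc6a9 (71.5 to 78.9 against 37.8 to 43.0) and Clstn3 (96.8 to 103 against 152 to 168) are narrow within groups.

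Gene lists of adipocyte pathways were examined by their members' counts and medians, beside a median log2 fold change of −1.8e-05 over all genes tested. Over all genes 0.104% were called higher and 0.236% lower, so lists of this size would usually hold no call. Of the thermogenic genes, 0 of 21 were called in either direction, 15 had a positive value and the median was 0.18. The groups did not overlap, in either direction, for 8 of the 21, against 14.3% of all genes tested. Ucp1 (chr8:83290352-83298452) had 8.22, 3.59 and 9.37 CPM in day0RT and 7.38, 22.7 and 18.7 CPM in day1C, with day1C mouse 1 inside the day0RT range (0.79 ± 0.50, adjusted p = 0.628). These values rest on a mean of 6.5 counts per mouse. Around Ucp1, 9 of 15 peaks could be tested, 5 had a positive value and 0 were called. Dio2, which activates thyroid hormone, had 26.7, 14.3 and 19.9 CPM against 32.7, 42.8 and 39.2 CPM (0.80, adjusted p = 0.259), and Pank1, an enzyme of coenzyme A synthesis, had 107, 100 and 96.1 CPM against 148, 118 and 142 CPM (0.47, adjusted p = 0.212). Both separated the groups without passing the threshold.

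Of the adrenergic and cAMP genes, 1 of 27 fell and 0 rose, with a median of −0.05. The one that fell was Adcy5 (chr16:35154877-35305738), at 460, 556 and 552 CPM in day0RT and 439, 342 and 293 CPM in day1C (−0.51 ± 0.12, adjusted p = 0.035). Adrb3, the receptor that CL acts on, had 214, 183 and 178 CPM against 170, 133 and 125 CPM, lower in every day1C mouse without passing the test (−0.37, adjusted p = 0.338). Of the immediate-early and CREB target genes, 0 of 21 were called and the median was −0.02, with Junb at −0.37 (adjusted p = 0.384) and Nr4a1 at −0.36 (adjusted p = 0.548).

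The list of de novo lipogenesis had the highest median of the 18 lists, 0.27, with 1 of 20 genes called higher (Me1), 0 lower and 19 with a positive value. The study picked Acaca, Acacb, Acly, Acss2, Fasn, Scd1 and Elovl6 of this list from these samples, so their direction is not independent evidence. It also reported a gain at Me1 along its ordering of the adipocyte nuclei of these samples, so the call of Me1 is not independent either. Summed over the list, the day0RT mice had 3318, 3220 and 3195 CPM and the day1C mice 3701, 4723 and 4030 CPM. The groups did not overlap, and day1C mouse 2, the shallowest of its group, was the highest. List sums also separated the groups for glycolysis, triglyceride synthesis, and creatine and calcium cycling (higher), and for adrenergic and cAMP genes (lower). Elovl6, which lengthens fatty acids, had 259, 143 and 179 CPM against 266, 345 and 297 CPM (0.59, adjusted p = 0.0802). Fasn, the fatty acid synthase, had 129, 108 and 123 CPM against 117, 252 and 220 CPM (0.58, adjusted p = 0.153), where day1C mouse 1 stood within the day0RT range.

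At single peaks of lipogenic genes, 4 of 243 tested rose and 0 fell, against 0.0815% and 0.132% of all peaks. All 4 lie in genes that the study picked from these samples, so this share is not independent evidence either. The Acly peak shown above lies in an intron of the gene for ATP citrate lyase (chr11:100504918-100506339), which makes cytosolic acetyl-CoA, and had 2.28, 3.81 and 8.78 CPM against 18.7, 66.5 and 21.0 CPM (2.28 ± 0.46, adjusted p = 0.00653). These values stand for 1, 1 and 7 nuclei in day0RT against 16, 24 and 10 in day1C. The Scd1 peak (chr19:44405409-44405897) lies in an intron of the stearoyl-CoA desaturase gene, 2226 bases past its start, and had 16.0, 7.62 and 20.1 CPM against 44.4, 49.9 and 42.1 CPM (1.42 ± 0.32, adjusted p = 0.0163). Neither peak had overlapping groups, and at Acly day1C mouse 2 stood far above the other day1C mice. The other 2 were a peak at the end of Fasn (chr11:120803546-120806168), whose nearest gene start is that of Dus1l (0.84 ± 0.20, adjusted p = 0.0351), and a peak in an Acacb intron (chr5:114213235-114213785) with a mean of 5 counts (2.90 ± 0.71, adjusted p = 0.0375).

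The neighbouring pathways of lipid handling gave few calls. For glycerol and triglyceride synthesis 0 of 16 genes were called, with a median of 0.21. Gpd2, the mitochondrial glycerol 3-phosphate dehydrogenase, had 142, 82.5 and 123 CPM in day0RT and 172, 196 and 204 CPM in day1C (0.63, adjusted p = 0.0541), and Gpam, which starts triglyceride synthesis, had 214, 230 and 211 CPM against 296, 290 and 288 CPM (0.44, adjusted p = 0.109). Both were higher in every day1C mouse and neither passed. A peak in an intron of Dgat2, which catalyses the last step of triglyceride synthesis (chr7:99161539-99162402), also rose (log2 fold change 1.00 ± 0.25, adjusted p = 0.043).

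Fatty acid uptake had 0 of 18 genes called and a median of 0.18, with Acsl1 at 0.34 (adjusted p = 0.197) and Cd36 at 0.33 (adjusted p = 0.206). Lipolysis and lipid droplet genes had 0 of 18 called and a median of 0.06, with Mgll at 0.29 (adjusted p = 0.251) and Plin2 at 0.34 (adjusted p = 0.374). One peak rose near G0s2, an inhibitor of the triglyceride lipase Pnpla2 (chr1:193270851-193272076), with 50.2, 38.1 and 46.4 CPM against 92.2, 111 and 79.9 CPM (1.01 ± 0.21, adjusted p = 0.00942). This peak lies 1754 bases past the G0s2 start and overlaps Lamb3, to which the gene sums count it. Mitochondrial fatty acid oxidation had 0 of 19 genes called and a median of 0.15, with Hadh at 0.34 (adjusted p = 0.318) and Crat at 0.28 (adjusted p = 0.465). A Hadh promoter peak rose (4.05 ± 0.93, adjusted p = 0.0218) on a mean of 3.83 counts.

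Glycolysis and pyruvate control, also a list that the study drew in part from these samples, had 0 of 26 genes called and a median of 0.10, with Pfkfb3 at 0.28 (adjusted p = 0.234) and Gapdh at 0.35 (adjusted p = 0.359). At its single peaks 3 of 191 rose, against 0.0815% of all peaks. In Pfkfb3, which makes the main activator of glycolysis, an exonic peak (chr2:11484237-11485232) had 31.9, 26.7 and 31.3 CPM in day0RT and 79.4, 49.9 and 58.9 CPM in day1C (1.13 ± 0.25, adjusted p = 0.0126). A second peak between genes, 84834 bases past the Pfkfb3 start (chr2:11468575-11469911), was higher too (0.83 ± 0.21, adjusted p = 0.0484). Upstream of Pdha1, a subunit of pyruvate dehydrogenase, a peak (chrX:160146857-160148021) had 11.4, 11.4 and 5.02 CPM against 31.5, 30.5 and 31.5 CPM (1.95 ± 0.41, adjusted p = 0.0101), with day1C mice nearly equal.

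The list of the glucocorticoid receptor and its targets had the lowest median of the 18 lists, −0.21, with 1 of 19 genes called lower (Zbtb16), 0 higher and 4 with a positive value. Zbtb16 (chr9:48654297-48836222) had 715, 1302 and 1174 CPM in day0RT and 648, 529 and 863 CPM in day1C (−0.63 ± 0.14, adjusted p = 0.0206). The groups overlapped, because day0RT mouse 1 lay inside the range of day1C. Fkbp5, a chaperone of the glucocorticoid receptor, had the same arrangement, at 345, 753 and 613 CPM against 384, 282 and 448 CPM (−0.57 ± 0.16, adjusted p = 0.0958). Summed over the list, day0RT had 3227, 4476 and 4045 CPM and day1C had 3080, 2951 and 3449 CPM, again with day0RT mouse 1 among the day1C mice. Nr3c1, the receptor itself, had 179, 126 and 152 CPM against 186, 181 and 220 CPM (0.33, adjusted p = 0.352).

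None of the remaining lists held a called gene. Single peaks fell whose nearest starts were those of Grb10 and Trib2 of the insulin list (−1.22 ± 0.31 and −1.58 ± 0.40) and of Gpam (−1.73 ± 0.44, 438451 bases away). Their medians were 0.05 for the core clock (21 tested, Npas2 −0.49, adjusted p = 0.352), −0.05 for adipocyte transcription factors (25 tested, Zfp423 −0.29, adjusted p = 0.215) and 0.02 for insulin signalling (23 tested, Foxo3 −0.35, adjusted p = 0.370, and Irs1 −0.22, adjusted p = 0.543). Adipokines had a median of 0.01 (20 tested, Lep 0.36, adjusted p = 0.347), creatine and calcium cycling 0.02 (12 tested, Itpr1 0.42, adjusted p = 0.0505, and Slc6a8 −0.84, adjusted p = 0.435) and hypoxia and angiogenesis 0.03 (16 tested, Adm −1.63, adjusted p = 0.147, and Egln1 0.32, adjusted p = 0.407). Heat shock and the unfolded protein response had 0.12 (12 tested, Atf6 0.42, adjusted p = 0.36, and Xbp1 −0.42, adjusted p = 0.414), and inflammation and interferon had −0.06 (20 tested, Lcn2 −0.88, adjusted p = 0.313, and Tlr4 0.38, adjusted p = 0.407). Pparg, the master regulator of adipocytes, had 497, 524 and 462 CPM in day0RT and 581, 634 and 605 CPM in day1C (0.31 ± 0.11, adjusted p = 0.216). Adipoq, which encodes adiponectin, had 265, 204 and 204 CPM against 207, 191 and 151 CPM (−0.27 ± 0.14, adjusted p = 0.541).

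**Figure D3:**
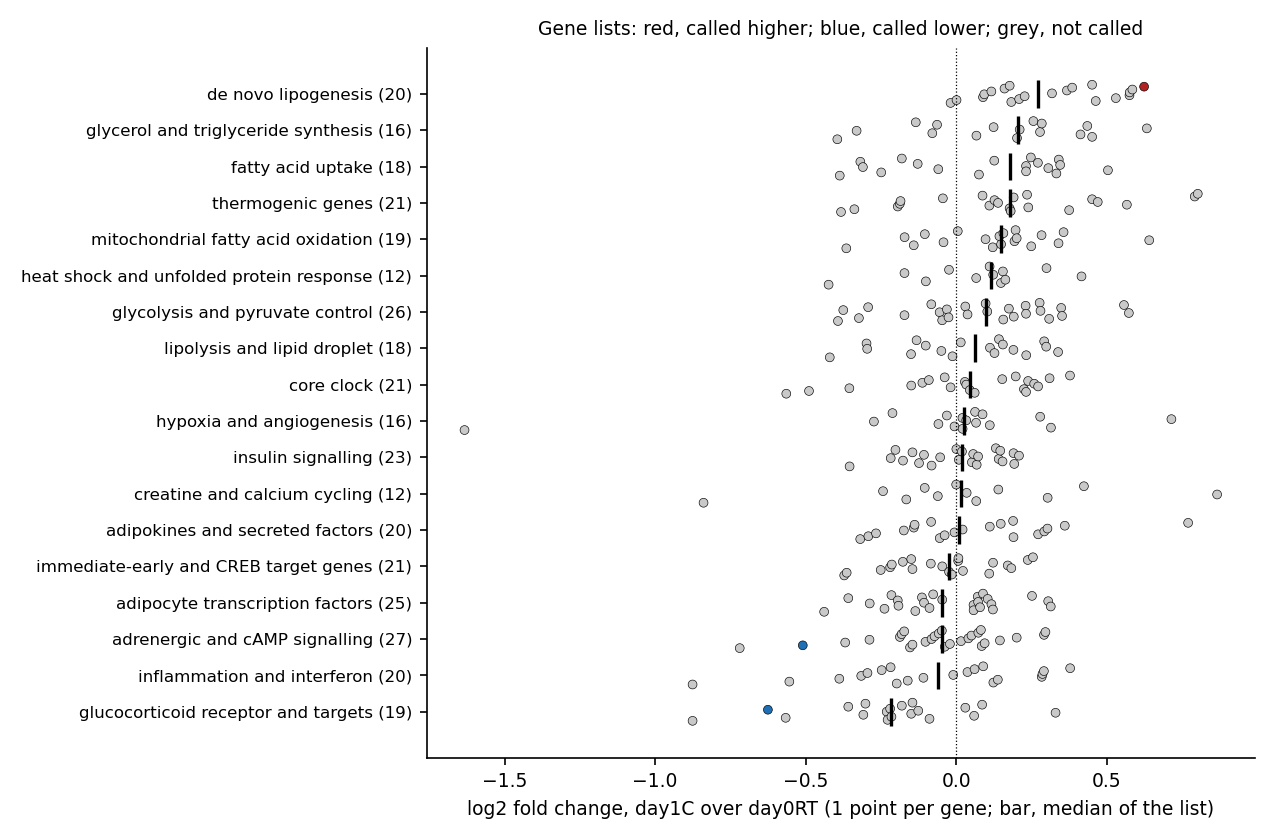
Log2 fold change of day1C over day0RT for the tested members of the 18 gene lists (number tested in brackets), with 1 point per gene, a bar at the list's median, and called genes in red (higher) or blue (lower). Medians run from −0.21 for glucocorticoid receptor and targets to 0.27 for de novo lipogenesis, and the only called members are Me1, Adcy5 and Zbtb16.

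The called peaks lay mostly away from promoters. Of the peaks that rose, 5.13% were promoter peaks (within 2000 bases of a gene start), 51.3% intronic and 38.5% between genes, and of those that fell 3.17%, 42.9% and 52.4%. Over all tested peaks the shares were 23.6%, 41.0% and 30.8%. At least a 2-fold change was seen for 33 of the 39 higher and 62 of the 63 lower peaks. Of all called peaks, 11 of the higher and 7 of the lower had a mean of at least 20 counts.

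Besides those described above, the peaks of greatest rise among those with a mean of at least 20 counts and no overlap lay in Nabp1 (chr1:51465355-51467656, 1.05 ± 0.23), in an intron of Tex14 (chr11:87426312-87427272, 1.00 ± 0.23) and between genes, with the nearest start that of the phospholipid flippase gene Atp10a (chr7:58830535-58831606, 1.09 ± 0.28). Among the peaks that fell, 1 upstream of 4931406P16Rik (chr7:34320677-34321744) had 79.9, 68.6 and 79.0 CPM in day0RT and 43.2, 22.2 and 29.4 CPM in day1C (−1.15 ± 0.23, adjusted p = 0.0045). A peak in an intron of Trpv3, a heat-sensitive cation channel (chr11:73274194-73275499), had 70.7, 83.9 and 55.2 CPM against 21.0, 41.6 and 35.7 CPM (−1.13 ± 0.25, adjusted p = 0.0126). The others were near Stard13 (chr5:151244160-151245262, −1.17 ± 0.27), in an exon of March8 (chr6:116407454-116408908, −1.08 ± 0.28), in an intron of Ppcdc (chr9:57432829-57434279, −1.07 ± 0.26) and between genes with the nearest start that of Jarid2 (chr13:44468717-44470105, −0.93 ± 0.22). In none of these did the groups overlap, as the naming rule required.

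The central 300 bases of every tested peak were searched for 11 motifs. The NR3C letters, shared by binding sites of the glucocorticoid, mineralocorticoid, androgen and progesterone receptors, were in 19 of the 63 peaks that fell (30.2%), 5 of the 39 that rose (12.8%) and 4457 of all 47835 (9.32%). Among peaks with an unadjusted p under 0.05, they were in 345 of 2420 lower ones (14.3%) and 204 of 2248 higher ones (9.07%). These values are described without a test and were singled out after they were seen. Median GC content was 51.3% in the peaks that fell, 46.3% in those that rose and 50.7% over all.

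The share in called peaks depended on the mice. The search covered peaks tested with all mice, so a few peaks called only without a mouse were not searched. Leaving out 1 mouse in turn gave 0% to 30.8% of the searched peaks called lower, with 32 of 104 without day0RT mouse 1, 0 of 8 without day0RT mouse 2 and 1 of 11 without day1C mouse 1. At an unadjusted p under 0.05 the range was 11.8% to 15.7%. In white adipocyte nuclei alone the letters were in 4 of 25 peaks called lower (16%) and in 3 of 18 called higher (16.7%). Of the 19 peaks with the letters, day0RT mouse 1 was the lowest of its group in 17. Of the 44 called peaks without them it was the lowest in 27. Over all tested peaks with the NR3C letters, the share of a mouse's counts was 7.73%, 8.53% and 8.40% in day0RT and 7.83%, 7.69% and 8.19% in day1C, so the groups overlapped through day0RT mouse 1.

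Among the peaks with these letters, the Zbtb16 peak (chr9:48723269-48724362) had 38.8, 80.1 and 63.9 CPM in day0RT and 18.7, 16.6 and 58.9 CPM in day1C, and fell by 1.00 ± 0.26 (log2, adjusted p = 0.0484). Tiam1, an activator of the small GTPase Rac, had an intronic peak with 20.5, 45.7 and 38.9 CPM against 7.00, 2.77 and 21.0 CPM (−1.77 ± 0.38, adjusted p = 0.0126). A peak whose nearest start, at −241952 bases, is that of Cited2, a transcriptional co-regulator, was lower (−1.77 ± 0.40, adjusted p = 0.0207). So was a peak at −52774 bases from its nearest start, that of Cnksr3, a scaffold of mineralocorticoid-regulated sodium transport (−2.24 ± 0.49, adjusted p = 0.0136).

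For the other letters the gaps were smaller in percentage points. C/EBP letters were in 25.6% of peaks that rose, 14.3% of those that fell and 21.0% of all, and E-box letters in 10.3%, 4.76% and 6.43%. EBF letters were in 12.8%, 14.3% and 15.1%, AP-1 letters (TGANTCA) in 5.13%, 7.94% and 9.45%, and HSF letters (TTCNNGAA) in 2.56%, 7.94% and 8.52%. NR4A letters (AAAGGTCA) were in 5.13%, 1.59% and 2.81%, and those of MEF2, searched by its usual consensus, in 5.13%, 0% and 0.794%. CRE (TGACGTCA), ERR (TCAAGGTCA) and PPAR-RXR (AGGTCANAGGTCA) letters were in none of the called peaks and in 0.792%, 0.525% and 0.107% of all.

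**Figure D4:**
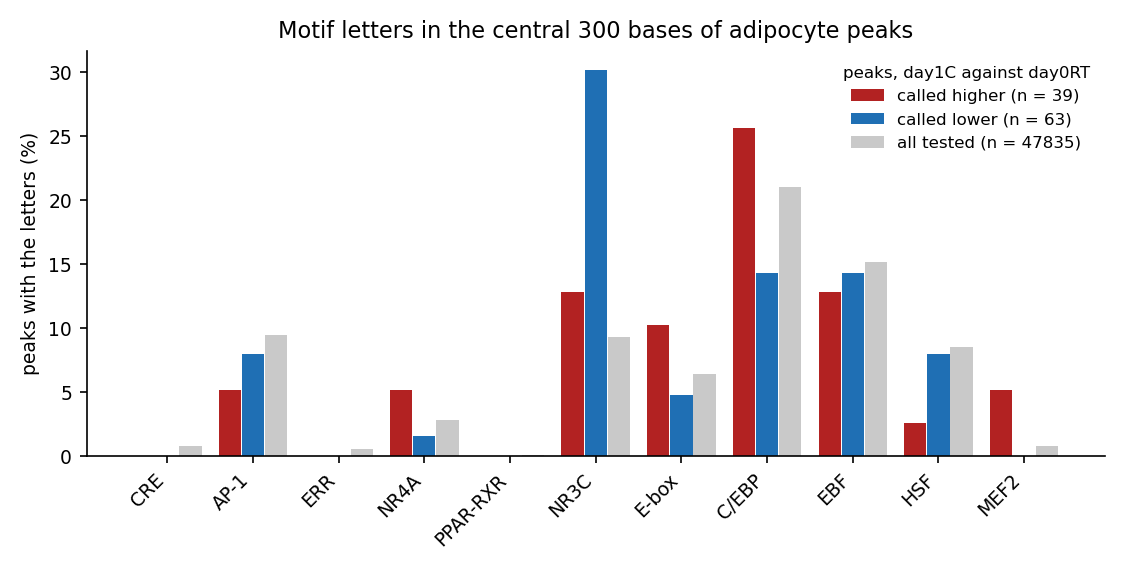
Percentage of peaks whose central 300 bases hold the letters of each motif, for the 39 peaks called higher, the 63 called lower and all 47835 tested in day1C against day0RT. The NR3C bar of the lower peaks stands at 30.2% against 9.32% of all peaks, the widest gap in percentage points of the 11 motifs. The MEF2 bar of the higher peaks, at 5.13% against 0.794%, stands for 2 peaks.

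Whether the calls followed the difference between beige and white nuclei was read in mice the comparison did not use. Beige was compared with Adipocyte, with mouse as a block, in 13 mice of the groups day3C, day7C, day1CL, day3CL and day7CL. Of 11709 genes, 12.8% were higher and 13.8% lower in Beige (edgeR adjusted p under 0.05). Of the 15 genes that rose after 1 day of cold, 4 were higher and 3 lower in Beige, with Pdcd1lg2 and Gucy2g among the former and Ghr and Me1 among the latter. Of the 34 genes that fell, 31 were tested, and 5 were higher and 11 lower in Beige. For peaks, 7.77% and 8.06% of 15990 were higher and lower in Beige, with 2 and 2 of 18 tested peaks that rose and 1 and 4 of 18 that fell. In the white nuclei alone, all 49 genes kept their direction, and 6 of the 15 and 18 of the 34 passed again. White nuclei are most of each mouse's sum (177 of 206 in day1C mouse 2), so the shared direction was largely built in.

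Accessibility after 1 day of cold was then set beside later cold. Directly compared with day1C, day3C differed at 15 genes higher and 24 lower (0.104% and 0.166% of 14429), and day7C at 204 higher and 120 lower (1.41% and 0.832%). The 2 contrasts share the day1C mice. Fabp4, the adipocyte fatty acid binding protein, had 402, 398 and 312 CPM at day 1 and 206, 170 and 252 CPM at day 3 (−0.82 ± 0.12, adjusted p = 2.98e-05). Without overlap, every day1C mouse lay above day3C. Grap2, Ccnh and Rasd1 also fell from day 1 to day 3, and Morn3, Aff2, Tmprss13 and Chrdl2 rose, by 0.88 to 1.67 on the log2 scale. By day 7, Pck1, which feeds glycerol synthesis in fat, had gone from 284, 262 and 163 CPM to 108, 114 and 127 CPM (−1.04 ± 0.15, adjusted p = 7.38e-06). Grk3, a kinase that desensitises β-adrenergic receptors, had gone from 23.2, 12.6 and 29.9 CPM to 64.4, 45.4 and 52.7 CPM (1.26 ± 0.23, adjusted p = 0.000746), and Grm7 and Tmem246 also rose, while Ppp1r16b, Grap2 and Rasd1 fell. The day 7 contrast holds 62 genes in white nuclei alone, and without day1C mouse 1 it holds 81. Leaving out day3C mouse 1 left 5 genes of the day 3 contrast.

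At the same time point, day1CL differed from day1C at 66 genes higher and 67 lower (0.457% and 0.464%). Txnip, an inhibitor of thioredoxin and glucose uptake, had 242, 166 and 148 CPM in day1C and 112, 96.5 and 77.1 CPM in day1CL (−1.25 ± 0.19, adjusted p = 4.35e-05). Cfd, the adipokine adipsin, had 54.8, 52.9 and 41.1 CPM against 18.7, 28.4 and 18.7 CPM (−1.34 ± 0.27, adjusted p = 0.00328), and Irf4, a transcription factor of adipocyte metabolism, and Cpa1 were also lower. Rdh10, which makes retinal, had 20.0, 22.7 and 20.6 CPM against 37.3, 73.8 and 52.6 CPM (1.39 ± 0.26, adjusted p = 0.000973), and Btn1a1, Cyp4b1 and Cyb561 were also higher. These values rest on 29, 68 and 654 adipocyte nuclei in the day1CL mice, and without day1CL mouse 3 edgeR called 0 genes, with 974 at an unadjusted p under 0.05, while without day1C mouse 1 it called 30.

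Across the groups the genes called at day 1 took different courses, with the caution that day0RT and day1C mice enter several of these comparisons. Ghr had 550, 623 and 728 CPM in day3C, 650, 613 and 608 CPM in day7C and 355, 568 and 500 CPM in day1CL. Me1 had 263, 251 and 285 CPM, 477, 300 and 314 CPM and 168, 341 and 330 CPM in the same order. Against day0RT, Me1 changed by 0.39 in day3C (adjusted p = 0.15), by 0.84 in day7C and by 0.65 in day1CL (adjusted p = 0.0094). Tex14 fell from day 1 to day 3, to 245, 217 and 241 CPM (−0.45 ± 0.11, adjusted p = 0.0439), and stood at 317, 324 and 374 CPM in day1CL. Gsg1l had 92.4, 89.6 and 88.6 CPM in day3C and 106, 104 and 95.7 CPM in day7C, between the levels of day1C and the day0RT mice 2 and 3. Ucp1 reached 37.1, 22.7 and 19.9 CPM in day7C.

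**Figure D5:**
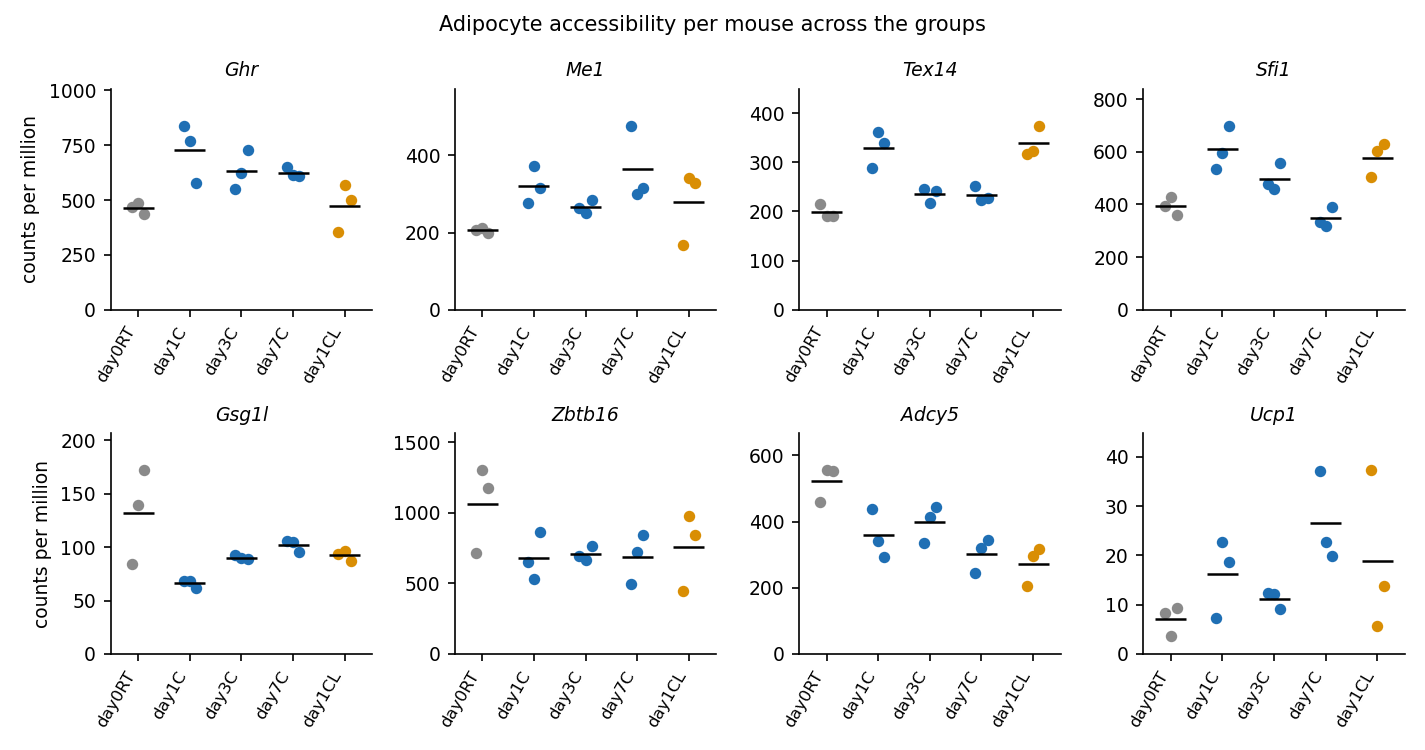
Accessibility of 8 genes in the adipocyte nuclei of each mouse (CPM) in day0RT, day1C, day3C, day7C and day1CL, with 1 point per mouse and a bar at the group mean. Ghr and Me1 stand above day0RT in every cold group, Tex14 is high in day1C (288 to 363) and day1CL (317 to 374), and Ucp1 spreads widely within groups (7.38 to 22.7 in day1C).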

How the data were processed

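The authors aligned the reads with Bowtie2 to mm10, removed duplicates and doublets, called peaks with MACS2 and annotated nuclei with Signac, by their notes and methods. They deposited a binary matrix (189598 peaks, 32552 nuclei) and, for each nucleus, its mouse, group and cell type. Its 4 sequencing samples each pool mice, so mice come from that annotation. The deposited entries were summed over Adipocyte and Beige nuclei of a mouse, and these counts are numbers of nuclei. Gene counts sum the peaks that overlap the body or 2000 bases upstream of a protein-coding gene (GENCODE vM21, GRCm38). CPM are scaled by TMM factors, except in the marker check and in the other nuclei. SD measures the spread between the 3 mice of a group. SE and edgeR p-values rest on a spread estimated over all 21 mice.

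Genes and peaks were tested in 1 fit over all 21 mice with edgeR 4.0.16 in R 4.3.3 (quasi-likelihood, filterByExpr, two-sided, Benjamini-Hochberg over all features, threshold 0.05). Adjusted p-values are from this test. Shares were compared by exact permutation. Scripts were tested on simulated data. Alternatives were DESeq2 1.42.0, other scaling and filters, white nuclei only, deeper nuclei, a mouse number block and each mouse left out. The members and the lists were chosen with earlier results of these data known. Named were Ucp1, Pparg and Adipoq, in each direction the 10 genes and 6 peaks of greatest fold change that were called, had no overlap between groups and had a mean of at least 20 counts, 4 genes a direction for each direct contrast by the same rule, and list members that were called or, where none was, the 2 with the smallest p. Some genes that this rule picks are not reported here. Ogdh, Igfbp2, Elovl6, Fasn, Fkbp5, Nr3c1, Adrb3, the peaks shown for their NR3C letters and the peaks of list genes lie outside this rule and were chosen after their values were seen.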

Additional observations from a re-analysis of the deposited data

Results flagged for a closer look

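Several genes named for the comparison of day1C with day0RT also differed directly between day1C and another treated group (edgeR's quasi-likelihood test of that difference, adjusted over all genes). These contrasts share the day1C mice with the first comparison. Tex14 was lower in day3C (log2 fold change −0.45, adjusted p = 0.0439) and in day7C (−0.47, adjusted p = 0.0103) than in day1C. Sfi1 was lower in day7C (−0.79, adjusted p = 5.22e-06), as was Adipoq (−0.59, adjusted p = 0.0107). Serpina3m was higher in day7C (0.95, adjusted p = 0.0162), as were Gsg1l (0.61, adjusted p = 0.0322) and LTO1 (0.77, adjusted p = 0.0257). Against day1C, Ghr was lower in day1CL (−0.54, adjusted p = 0.0167) and Serpina3m was higher (1.02, adjusted p = 0.0386). The day1CL values rest on 29 and 68 nuclei in 2 of the 3 mice. The causes of these differences were not tested.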

How the results depend on the processing

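Over the named genes, 364 of 365 values under the alternatives kept their direction, the exception being Tex14 with peaks near the gene start only (−0.043), and for the named peaks 180 of 180 did. Most of these were named for a large change with no overlap between groups, and the alternatives reuse the same mice. Their direction was thus largely set in advance, and this agreement does not test it. The counts of calls moved more. Against 49 genes for day1C over day0RT, DESeq2 gave 9, white adipocyte nuclei only 27, nuclei with at least 2000 counts 19, an adjusted p under 0.01 6 and peaks near the gene start only 0, and leaving out 1 mouse gave 0 to 80. Against 102 peaks, DESeq2 gave 0, no filter on low counts 6, only the 6 mice compared 52, white nuclei only 43, nuclei with at least 2000 counts 8 and an adjusted p under 0.01 10, and leaving out 1 mouse gave 1 to 161. Scaling by library totals or by RLE factors stayed within 1.5 times both counts. For day3C over day1C, 39 genes became 3 with DESeq2 and 5 to 81 without 1 mouse. For day7C over day1C, 324 genes became 64 with DESeq2, 62 in white nuclei only and 81 to 250 without 1 mouse, and for day1CL over day1C 133 became 11 with DESeq2 and 0 to 144 without 1 mouse. The cause was not tested, except that fewer nuclei and mice enter some of these.

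Same-numbered mice did not deviate together, with correlations of −0.0667, −0.0217 and 0.0134 over genes and −0.0202, −0.0222 and 0.0294 over peaks. With the mouse number as a replicate block, 25 genes and 60 peaks were called for day1C over day0RT. Among the named ones, Capn3, Gucy2g, Heyl, LTO1, Serpina3m and Slc6a9 kept their direction and no longer passed. The same held for the peak whose nearest start is that of Atp10a and for the peaks in Dgat2, March8 and Ppcdc. The fit with the block called 48 genes for day3C, 354 for day7C and 140 for day1CL over day1C.

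The difference in the Beige share was −0.69 to 2.67 percentage points without 1 mouse, reversed at −0.69 without day1C mouse 2. That in the adipocyte share of all nuclei was 0.23 to 8.52, and 21.7 in nuclei with at least 2000 counts. Leaving out 1 mouse leaves 2 in its group. The depth, with under 300 adipocyte nuclei in 5 of the 6 mice, limits peaks with few counts most.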
